A study of Mus musculus with 50 samples.

Results

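Wide regions of mono-methylated lysine 27 of histone H3 (H3K27me1) were examined in mouse embryonic stem cells (ESCs) that lack Ezh2. The regions were chosen by their width, as end minus start of at least 5000 bp in the Ezh2 KO H3K27me1 list, so their width and H3K27me1 enrichment in Ezh2 KO are a description. Of the 317833 regions of that list, 15436 were wide (4.86%), and together they covered 126.8 Mb, which is 25.4% of the bases of the list. The 4 H3K27me1 lists of the series held 932279 regions in all. The lines were the wild-type ESC line E14 (WT), Ezh2 KO with a CRISPR/Cas9 macrodeletion of Ezh2, Ezh1/2 dKO with both genes deleted one after the other, and Ezh2 Y726D, in which the point mutation in Ezh2 was made in Ezh1 KO cells. Ezh1 is therefore intact in WT and in Ezh2 KO and deleted in both other lines. The mutant lines were derived as clones of E14, and cells were grown on gelatin with serum, LIF and inhibitors of GSK3 and MEK. ChIP-seq and ATAC-seq lists came from 1 library per line and mark, so differences between lines have no replicate check. RNA-seq had 2 libraries per line.

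PRC2 is the Polycomb complex that methylates H3K27 through EZH1 or EZH2 together with SUZ12. In ESCs the tri-methylated form (H3K27me3) marks repressed developmental promoters where PRC2 binds, the di-methylated form (H3K27me2) spreads over large intergenic and silent intragenic stretches, and the mono-methylated form is known from the bodies of transcribed genes. SUZ12 is found at CpG islands, which are stretches rich in the CG dinucleotide. EZH1 has lower catalytic activity than EZH2, and in Ezh2 KO cells it is the remaining H3K27 methyltransferase of PRC2.

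To show the kind of sequence in these regions, the central 200 bases of the widest and the third widest wide region are printed beside the central 200 bases of the WT SUZ12 peak with the largest -log10 p among those that overlapped a wide region and had no exon at the centre. The letters were read from the mm9 genome on the plus strand, and capitals mark each CG. The first window lies in an intron of Ccdc13, the second in an intron of Sdk1 and the third between protein-coding genes.
chr9:121711171-121711370: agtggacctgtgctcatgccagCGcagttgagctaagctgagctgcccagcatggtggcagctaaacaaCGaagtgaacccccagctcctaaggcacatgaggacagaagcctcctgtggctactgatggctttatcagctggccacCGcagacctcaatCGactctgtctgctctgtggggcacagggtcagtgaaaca
chr5:142658271-142658470: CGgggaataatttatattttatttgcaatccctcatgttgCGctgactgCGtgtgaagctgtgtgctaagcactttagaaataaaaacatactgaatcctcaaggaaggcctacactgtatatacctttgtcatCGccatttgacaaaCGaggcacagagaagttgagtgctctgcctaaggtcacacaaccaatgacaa
chr9:89804196-89804395: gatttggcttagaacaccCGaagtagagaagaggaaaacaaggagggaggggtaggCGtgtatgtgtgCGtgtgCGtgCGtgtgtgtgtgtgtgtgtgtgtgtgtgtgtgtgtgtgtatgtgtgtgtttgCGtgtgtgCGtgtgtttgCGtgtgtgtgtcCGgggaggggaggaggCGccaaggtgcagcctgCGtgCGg
The windows held 4, 5 and 12 CG dinucleotides and had a GC content of 56.5%, 42% and 57%. The central window of the second widest region, not printed, held only 2 CG at a GC content of 52%. Over all their bases, the wide regions had a GC content of 47.5% and 11.1 CG per kb, between the chromosomes (41.7% and 8.31 per kb) and WT SUZ12 peaks (59.7% and 59.0 per kb). KO regions under 5000 bp had a GC content of 44.03%, and wide H3K27me1 regions of WT had 43.1%.

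In the RNA-seq libraries Ezh2 matched the labels. It had normalized counts of 598 and 546 in WT against 1.05 and 0.968 in Ezh2 KO (log2 fold change -8.16, SE 0.39, adjusted p = 4.698e-05 by limma). It had 0.824 and 1.78 in Ezh1/2 dKO, and 422 and 613 in the Y726D line. All 12 ESC markers were detected, with summed normalized counts of 16698 to 18735 in WT and 17436 to 17469 in Ezh2 KO. The summed counts of markers of other lineages were lower, at 303 to 457 in WT and 258 to 616 in Ezh2 KO for primitive endoderm, 69.3 to 76.0 and 42.9 to 51.3 for primitive streak and mesoderm, 545 to 1353 and 546 to 882 for neural cells, 4.81 to 12.01 and 14.5 to 16.7 for fibroblasts, and 316 to 403 and 393 to 539 for trophectoderm. Of 31 tested markers limma called 0 as changed in Ezh2 KO, while 4 had an unadjusted p under 0.05, edgeR called 0 and DESeq2 called 1. In such bulk samples fewer cells of a type and less RNA per cell cannot be told apart.

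The wide regions had a median width of 6873 bp, with quartiles of 5730 and 9116 bp and a maximum of 46207 bp. They were weak enrichments. The region -log10 p ran from 1.12 to 4.21 with a median of 1.55, the largest -log10 q was 0.976, and the fold over background ran from 1.28 to 2.67. Only 137 wide regions (0.888%) held a sub-block of stronger enrichment. The number of reads behind the list is unknown. At the threshold itself, 638 regions of 4900 to 4999 bp and 575 of 5000 to 5099 bp had 22.4% and 21.3% of their bases in WT H3K27me2 regions, 1.54% and 1.55% in WT H3K27me3 peaks, and median distances to a WT SUZ12 peak of 164 and 144 kb.

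The regions were uneven along the chromosomes. The list held no region on chromosome 8 or Y and only 9 wide regions on chromosome X. Among the other autosomes the density was highest on chromosome 9, with 10.4 wide regions per Mb, followed by chromosome 7 with 9.82, and lowest on chromosome 11, with 1.76. WT H3K27me2 was listed nowhere on chromosome 8 either and covered only 0.416% of chromosome X and 7.26% of chromosome 11, against 13.7% to 19.4% of every other autosome. WT H3K27me3 peaks covered 0.382% of chromosome 8 and 0.759% of chromosome 11. The cause of these gaps was not tested, and shares below refer to the 19 chromosomes listed (2431 Mb of sequenced bases, of which the wide regions covered 5.22%). The gap from one wide region to the next had a median of 18127 bp.

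Wide H3K27me1 in Ezh2 KO and wide H3K27me1 in WT occupied almost separate parts of the genome. Only 108 of the 15436 wide KO regions overlapped a wide WT region (0.700%, Wilson 95% interval 0.580 to 0.844, counting error only), and 104 of 15429 wide WT regions overlapped a wide KO region (0.674%). WT H3K27me1 regions of any width covered 3.52% of wide-region bases, 7.76% of the bases of narrower KO regions and 15.6% of the chromosomes. In 10737 wide regions (69.6%) no base was listed for H3K27me1 in WT. The wide KO regions were therefore below the chromosome average for WT H3K27me1, and narrower KO regions were too.

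WT H3K27me2 lay over 21.6% of the wide-region bases, against 22.8% in narrower KO regions and 14.6% of the chromosomes. The median wide region had WT H3K27me2 over 17.0% of its length (quartiles 4.96% and 33.0%), 2920 regions had none, and 1636 (10.6%) had it over at least 50% of their length. The 2920 regions without WT H3K27me2 carried WT H3K27me3 over 4.95% of their bases, and the 1636 regions with much WT H3K27me2 over 0.787%. At the GC content of the wide regions (median 46.9% per region) the chromosomes had more WT H3K27me2 than the wide regions, at 23.9% of bases in windows of 44% to 46% GC and 27.02% at 46% to 48%.

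WT H3K27me3 peaks were found in 2150 wide regions (13.9%, 13.4 to 14.5) and in 5283 of 302397 narrower regions (1.75%, 1.70 to 1.79). The chance of touching a peak grows with width, while the share of bases can be compared between widths. It was 2.08% in wide regions, 1.02% in narrower ones and 0.575% of the chromosomes. Wide WT H3K27me1 regions had WT H3K27me3 over 0.00215% of their bases. Along the wide regions WT H3K27me3 was highest in the outermost of 5 steps from either end to the centre (3.001% of bases) and lower in the innermost step (1.74%). Ezh2 KO H3K27me3 peaks covered 1.24% of the wide-region bases and overlapped 1255 of the regions.

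Listed H3K27me2 regions of the same line covered most of the wide-region bases. The paper reports a global loss of H3K27me2 in Ezh2 KO by western blot. By spike-in scaled ChIP-seq it reports complete loss inside poorly expressed genes and a gain at Polycomb-bound promoters. The list used here is not scaled, its median -log10 p was 1.51, and a stricter p was not tried for it. Ezh2 KO H3K27me2 regions covered 81.6% of wide-region bases, 43.5% of the bases of narrower KO regions, 16.7% of the chromosomes and 0.260% of wide WT H3K27me1 regions. It overlapped 15354 of the 15436 wide regions (99.5%), and 13471 (87.3%) had it over at least 50% of their length. The H3K27me2 lists of Ezh1/2 dKO and Ezh2 Y726D covered 45.5% and 48.6% of wide-region bases (25.6% and 25.1% of the chromosomes). This was also more than the 21.6% of WT. Their shares in narrower KO regions were close to these, at 45.9% and 45.5%. In both of those lines the paper reports H3K27me2 as lost by western blot. Wide H3K27me2 regions of Ezh2 KO covered 63.9% of the wide H3K27me1 bases. The H3K27me1 and H3K27me2 lists come from separate libraries of the same line. Few strong H3K27ac peaks lay in the wide regions, with Ezh2 KO H3K27ac peaks over 0.0178% of wide-region bases and 0.817% of the chromosomes. That list was cut to strongly enriched narrow peaks, while the H3K27me1 and H3K27me2 lists were used whole. The paper reports a diffuse gain of H3K27ac in Ezh2 KO. A list of strong peaks cannot show low, spread acetylation, so its presence in the wide regions was not tested.

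H3K27me1 lists of Ezh1/2 dKO and Ezh2 Y726D also touched these places. The paper describes the Y726D mutant of EZH2 as catalytically dead. By western blot it reports that both lines lost every form of H3K27 methylation. What the listed regions of these lines measure was not tested. On the chromosomes of each list, Ezh1/2 dKO H3K27me1 regions covered 35.4% of wide-region bases (11.97% of those 16 chromosomes) and Ezh2 Y726D H3K27me1 regions 37.5% (12.97% of 9 chromosomes). Few of those were wide. Ezh1/2 dKO had 931 regions of at least 5000 bp and Ezh2 Y726D had 779, which covered 2.45% and 3.13% of the wide-region bases of Ezh2 KO. WT had 15885, of which 15429 lay on the chromosomes of the Ezh2 KO list. Of the bases of these wide WT regions, the Ezh1/2 dKO and Ezh2 Y726D H3K27me1 lists covered 12.3% and 16.95%.

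**Figure D1:**
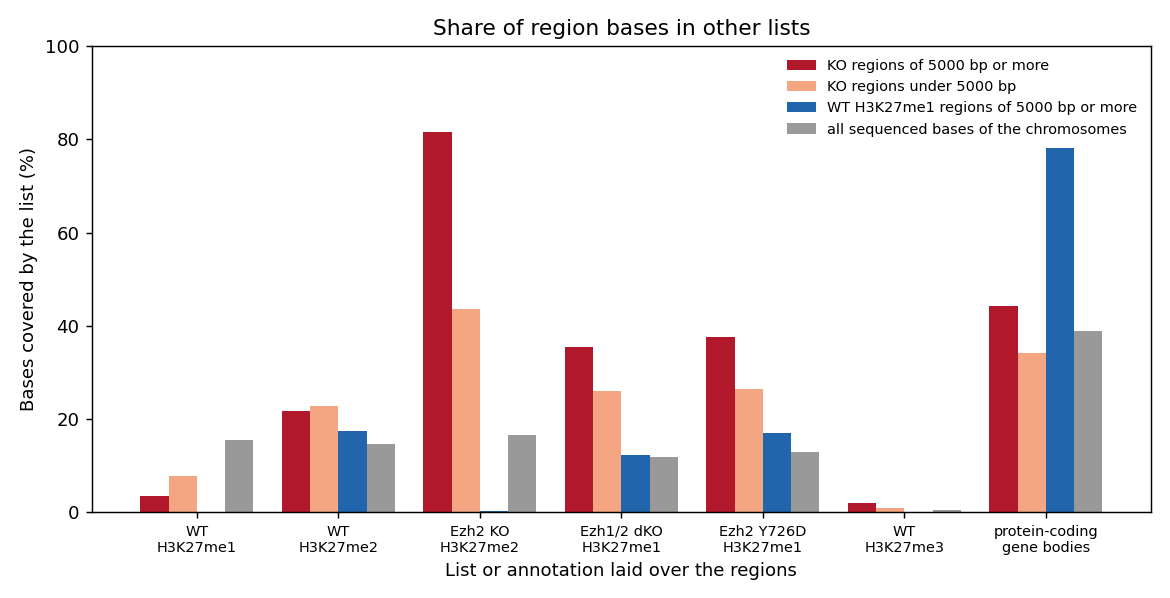
Percent of bases covered by each list (x axis) in Ezh2 KO H3K27me1 regions of at least 5000 bp, in narrower ones, in wide WT H3K27me1 regions and over the chromosomes; the WT H3K27me1 bar of its own wide regions is left out. Ezh2 KO H3K27me2 covered 81.6% of the wide KO regions and 0.260% of the wide WT ones, while gene bodies covered 44.3% and 78.1%.

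Within the list, the wider a region was, the more of it lay in Ezh2 KO H3K27me2 and the nearer it was to a WT SUZ12 peak. Coverage by Ezh2 KO H3K27me2 was 72.5% in the 4939 regions from 5000 to under 6000 bp, 83.2% in the 2371 regions from 8000 to under 10000 bp and 95.9% in the 65 regions of at least 30000 bp. Coverage by WT H3K27me1 went from 4.53% to 3.38% and 2.47% in the same classes. The WT H3K27me2 share stayed between 20.2% and 22.8% over all classes of at least 5000 bp. The WT H3K27me3 share stayed between 1.79% and 2.75%. The median distance to a WT SUZ12 peak was 142 kb, 112 kb and 33.1 kb.

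**Figure D2:**
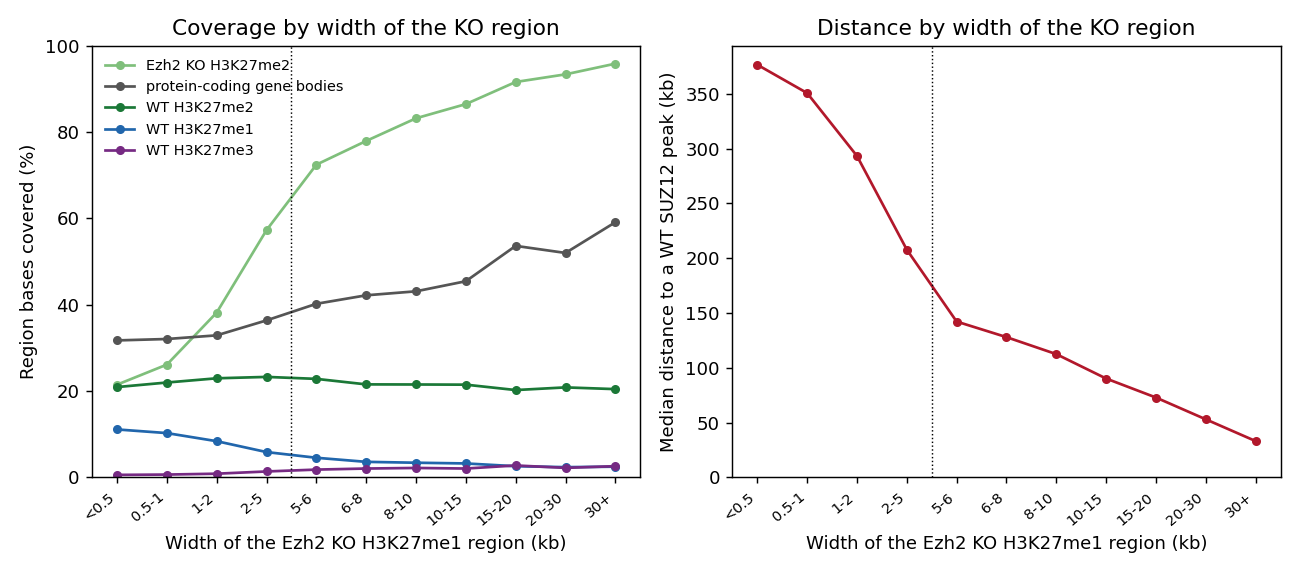
Percent of region bases covered by 4 lists and by gene bodies (left) and median distance to the nearest WT SUZ12 peak in kb (right) by width class of Ezh2 KO H3K27me1 regions, with a dotted line at 5000 bp. Ezh2 KO H3K27me2 rose from 72.5% from 5000 to under 6000 bp to 95.9% at 30000 bp or more, while WT H3K27me2 stayed between 20.2% and 22.8%.

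Few wide regions lay on a WT SUZ12 peak, and most were far from one, although nearer than narrower KO regions. The median distance to the nearest WT SUZ12 peak was 118.8 kb (95% interval 115 to 123), with quartiles of 34.1 and 285 kb. For narrower KO regions it was 309 kb (307 to 311), and for wide WT H3K27me1 regions 227 kb (222 to 234). Only 336 wide regions (2.18%) overlapped a WT SUZ12 peak, 12.2% lay within 10 kb, 45.7% within 100 kb and 2.41% farther than 1000 kb. The wide regions with a SUZ12 peak had WT H3K27me3 over 22.0% of their bases, and 28.9% of them held the start site of a protein-coding gene, against 5.81% of all wide regions.

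Seen from the SUZ12 peaks, 3.14% of the bases inside WT SUZ12 peaks were in wide KO H3K27me1. The share was 9.21% within the first kb outside, 14.6% at 1 to 2 kb, 17.9% at 2 to 5 kb and 18.1% at 5 to 10 kb, and it declined to 8.93% at 50 to 100 kb and 0.495% beyond 1000 kb. KO H3K27me1 of any width showed the same shape nearer the peaks, with 9.89% inside and 51.6% at 1 to 2 kb. WT H3K27me3 ran the other way, from 73.6% inside to 23.4% at 1 to 2 kb and 1.49% at 5 to 10 kb. Wide WT H3K27me1 was at 0.116% inside the peaks and highest at 50 to 100 kb, at 11.6%. Ezh2 KO H3K27me2 covered 95.005% of the bases inside SUZ12 peaks.

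**Figure D3:**
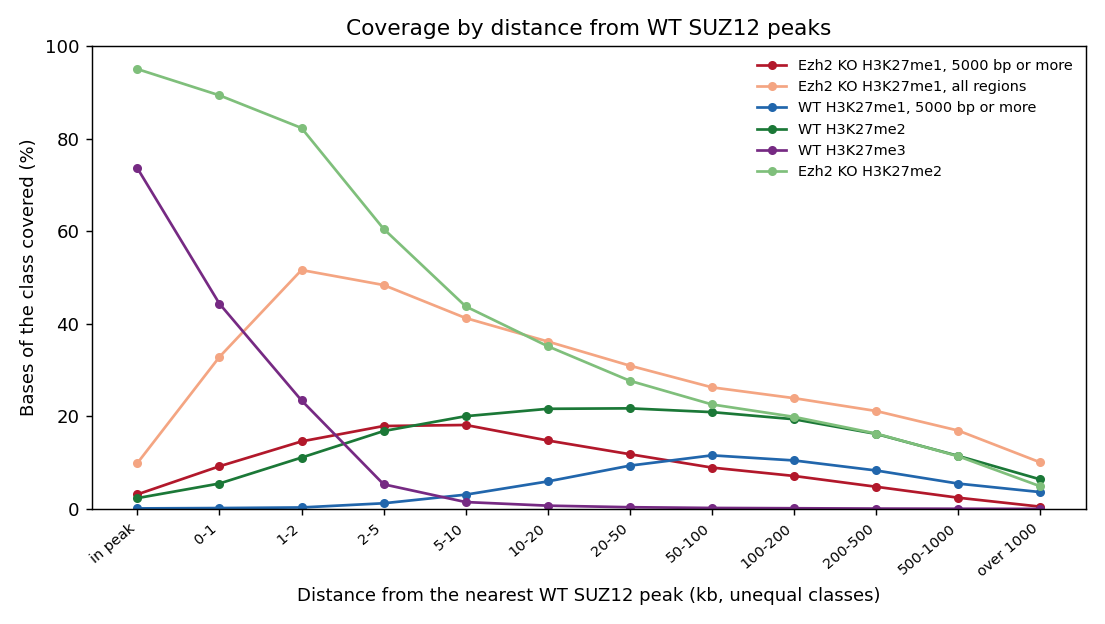
Percent of bases in each list by distance from the nearest WT SUZ12 peak (x axis, unequal classes in kb, on the 19 listed chromosomes). Wide Ezh2 KO H3K27me1 was at 3.14% inside the peaks and highest at 5 to 10 kb (18.1%), where WT H3K27me3 had fallen to 1.49%.

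Base composition moved with these distances and its part was not tested. In windows of 10 kb, the share of bases in wide KO regions was 0.430% at a GC content of 38% to 40%, 9.17% at 44% to 46% and 24.8% at 52% to 54%. Values by distance are given as a description for 1 class, 46% to 48%, which holds the median GC content of the wide regions (46.9%). There the share was 16.6% in 4762 windows within 50 kb of a WT SUZ12 peak. It was 14.2% in 11356 windows at 50 to 500 kb and 8.90% in 2376 windows farther away. Wide WT H3K27me1 moved less with GC content, from 5.38% to 9.21% and 14.5% in the same 3 classes, and Ezh2 KO H3K27me2 went from 7.08% to 26.9% and 44.1%.

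WT H3K27me3 peaks differed in how often they met a wide KO region. Of 16143 WT H3K27me3 peaks on these chromosomes, 4271 overlapped one (26.5%, 25.8 to 27.1). Peaks on a WT SUZ12 peak did so in 11.5% of 4944 cases (10.6 to 12.4), and peaks away from SUZ12 in 33.1% of 11199 (32.2 to 33.9). Away from SUZ12, peaks with no Ezh2 KO H3K27me3 peak were overlapped in 36.6% of 7544 cases (35.5 to 37.7). Those that still had one were overlapped in 25.9% of 3655 (24.5 to 27.3). On SUZ12 the order was the other way, with 8.54% of 574 (6.52 to 11.1) and 11.9% of 4370 (10.95 to 12.9). Any KO H3K27me1 region covered 77.2% and 57.8% of the bases of these groups away from SUZ12. On SUZ12 it covered 36.9% and 24.4%. Ezh2 KO H3K27me2 covered 94.3% to 99.98% of the bases in each of these groups. The lists come from 1 library each, and the intervals cover counting error only.

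The 10 widest regions were 40248 to 46207 bp long and lay on chromosomes 1, 2, 5, 6, 9, 13 and 15. The widest, chr9:121688172-121734378, begins in the last bases of a WT SUZ12 peak and runs over Hhatl, which encodes a protein like Hedgehog acyltransferase, most of Kbtbd5, a muscle kelch-repeat gene, and part of Ccdc13. WT H3K27me2 covered 20.499% of it, WT H3K27me3 5.53%, WT H3K27me1 none, and Ezh2 KO H3K27me2 94.4%. The second, chr13:55992299-56036049, lies between genes, 53.6 kb from SUZ12, with 26.1% WT H3K27me2, no WT H3K27me3 and 100% Ezh2 KO H3K27me2. The third, chr5:142636612-142680134, lies within Sdk1, an adhesion molecule of the immunoglobulin family, at 896 kb from a WT SUZ12 peak. Others cover parts of Kif1a, which encodes an axonal kinesin, Sspo, which encodes the secreted SCO-spondin, Hmcn2, an extracellular hemicentin gene, and Elfn2. Over these 10 regions, Ezh2 KO H3K27me2 ran from 84.2% to 100%, WT H3K27me2 from 5.69% to 29.3%, WT H3K27me1 from 0 to 3.60% and the distance to SUZ12 from 0 to 896 kb. Kif1a had normalized counts of 8.004 and 6.74 in WT against 0 and 6.77 in Ezh2 KO, and Sspo had 1.33 and 0.963 in WT against 3.14 and 5.81 in Ezh2 KO.

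The 10 wide regions with the largest -log10 p looked different from the widest. The strongest, chr11:3032069-3037885 in Sfi1, had a -log10 p of 4.21 at a fold of 1.56, with 94.997% WT H3K27me2 and 44.6% WT H3K27me1, and lies close to the start of the sequenced part of its chromosome. The next, chr17:31033646-31056169 over the start of Glp1r, the receptor of glucagon-like peptide 1, had 79.3% WT H3K27me2, 39.5% WT H3K27me3 and 29.2% WT H3K27me1. Over these 10 regions WT H3K27me1 ran from 0 to 100% and WT H3K27me2 from 3.71% to 94.997%. Besides Sfi1 and Glp1r they touched Mid1, Ebf3, Cabp4, Gpr152, C2cd2l and Ptprs.

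Wide regions were found in and between genes. Of the 15436, 7274 overlapped a protein-coding gene (47.1%, 46.3 to 47.9), 5696 lay entirely in gene bodies and 8162 (52.9%) touched none. Gene bodies held 44.3% of wide-region bases, against 34.2% in narrower KO regions, 78.1% in wide WT regions and 38.9% of the chromosomes. Exons made up 3.93% of wide-region bases and 11.05% of the bases of wide WT regions. Of 21268 protein-coding genes on the listed chromosomes, 3199 (15.04%) shared bases with a wide region, 1107 had at least 50% of their body in one and 946 had their start site in one. A wide WT region was present in 7365 genes, and 422 genes had both. A wide KO region was present in 40.3% of genes whose start lay at most 5 kb from WT SUZ12 and in 11.05% of other genes, and wide regions took up 11.5% and 3.78% of their body bases.

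In genes of at least 10 kb, wide KO regions were spread evenly along the body. In the 2032 genes with SUZ12 at the start they covered 10.4% to 12.7% of each of 10 equal steps along the body, and in the 10783 others 3.17% to 4.399%. Wide WT H3K27me1 covered 9.02% of the first and 25.1% of the last step of the latter.

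Genes with wide KO regions were weakly expressed in WT. The paper already describes H3K27me1 in Ezh2 KO by spike-in scaled ChIP-seq. It reports a gain inside poorly transcribed genes, where H3K27me2 was lost, and a complete loss at highly transcribed genes. The lists used here are not scaled. Levels are normalized counts per kb of exon, which can be compared between genes. Of the 3199 genes, 2556 were found in the RNA-seq table, and their median level was 1.03 in WT replicate 1 and 1.19 in replicate 2. Genes with a wide WT H3K27me1 region had medians of 70.98 and 75.5, and genes without a wide KO region 33.9 and 36.8. By the classes of WT replicate 1, wide KO regions covered 11.6% of the body bases of genes listed at 0, 12.7% at a level under 1, 8.60% at 1 to 10, 1.51% at 10 to 100 and 0.317% at 100 to 1000. Of the 135 genes with a level of at least 1000 in that library, 0 had a wide region. The classes of WT replicate 2 gave 10.5%, 13.3%, 9.06%, 1.54% and 0.289%. Wide WT regions covered 0.839%, 0.840%, 3.35%, 25.9% and 50.8% in the classes of replicate 1. Both libraries gave the same order of classes.

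The decline with expression was also present in genes without WT SUZ12 within 5 kb of the start. There wide KO regions covered 8.21% of body bases at a level under 10, 0.857% at 10 to 100 and 0.263% at 100 or more, and in genes with SUZ12 13.4%, 5.91% and 2.54% (classes of WT replicate 1).

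**Figure D4:**
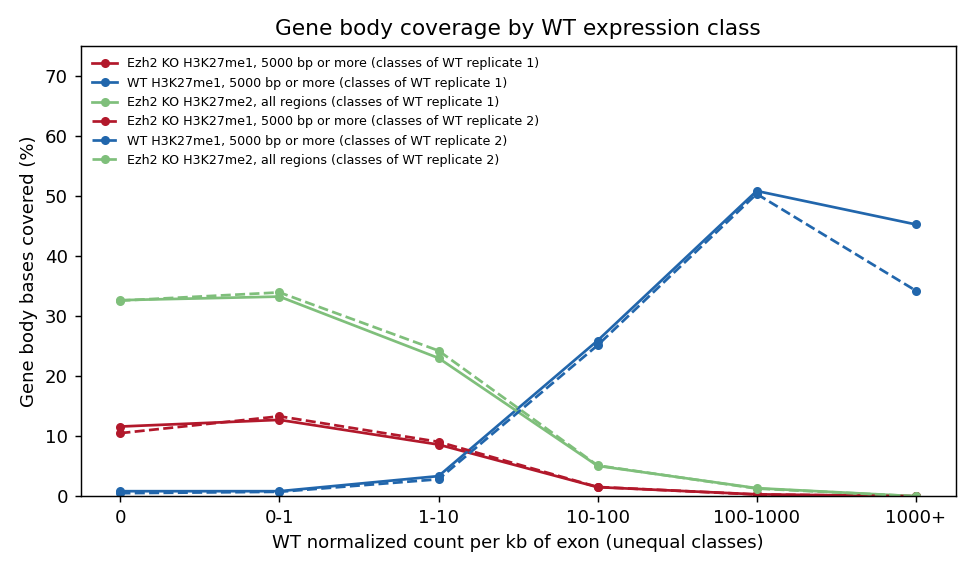
Percent of gene body bases (y axis) in wide Ezh2 KO H3K27me1, wide WT H3K27me1 and all Ezh2 KO H3K27me2 regions by class of WT normalized count per kb of exon, with solid lines for classes of WT replicate 1 and dashed lines for replicate 2. Wide KO coverage was 11.6% in genes at 0 and 0.317% at 100 to 1000, and wide WT coverage was 0.839% and 50.8%.

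Gene groups differed in how often they held a wide region, to be read against 15.1% of genes with a unique symbol and 5.95% of their body bases. None of the 15 Polycomb loci shown in the study, such as Wnt5a, Cdx2, Fgfr3 and Hoxa7, shared a base with one, although all 15 had a WT SUZ12 peak within 5 kb of the start. Ezh2 KO H3K27me2 covered from 49.8% (Hmx3) and 62.2% (Mmp25) to 100% (Cdx2 and Hoxa7, among others) of their bodies, and 88.0% of Wnt5a. Of 39 Hox genes, the homeobox genes that pattern the body axis, 2 did, namely Hoxd3 and Hoxd4. Of the 97 genes with symbols that begin with Krt, 26 did, mostly keratins, which are epithelial intermediate filaments, but also the keratin-associated protein genes Krtap12-1 and Krtap8-1 and the pseudogene Krt72-ps, with 36.5% of the list's body bases in wide regions, and Krt5, Krt71 and Krt84 were covered over 100% of their length. Genes of this list lie in clusters, so that neighbours share regions, and 5 of them had SUZ12 at the start. Of 18 defensin genes on listed chromosomes, 4 did, with 11.1% of body bases.

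Other large gene families had low coverage. Of 1108 olfactory receptor genes, 25 held a wide region (3.46% of body bases), and of 321 vomeronasal receptor genes and 24 clustered protocadherin genes 0 did. The 36 long neuronal adhesion and synapse genes on listed chromosomes had wide regions in 13, but over only 1.33% of their body bases, at a GC content of 38.3% against 43.0% for all genes and 49.6% for keratins. Ntm (15.5% of the body), Dpp6 (14.6%) and Dscam (11.3%) had the most. The 4 hits among 138 symbols that start with Rpl or Rps were the kinase genes Rps6ka4, Rps6kc1 and Rps6kl1 and the pseudogene Rpl21-ps7, so that no gene of a cytosolic ribosomal protein had one. Of the ESC markers only Esrrb, an orphan nuclear receptor of the pluripotency network, did (1 of 10, 29.0% of its body). Of the lineage markers, 2 of 8 of primitive endoderm (Gata4 and Pdgfra), 3 of 6 of primitive streak and mesoderm (Kdr among them, 33.4% of the body), 1 of 3 neural (Nes, 53.8%), 3 of 5 of trophectoderm (Krt7, 68.5%) and 0 of 7 of fibroblasts had one.

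Ranking genes by their bases in wide regions favours long genes. Cacna1c, the pore subunit of an L-type calcium channel, held 336 kb in 32 wide regions (55.7% of its body), Sdk1 332 kb in 33, and Shank2, a scaffold of excitatory synapses, 307 kb in 24 (72.7%). Csmd2 had 283 kb, the sorting receptor gene Sorcs2 281 kb (73.7%), Ephb1, a receptor of ephrin-B ligands, 268 kb, Cdh4, which encodes R-cadherin, 254 kb, Cdh23, a cadherin of hair-cell tip links, 250.3 kb, and Gabbr2, a GABA-B receptor subunit, 235 kb (71.4%). Fgfr2 came first with 710 kb, but its interval in the annotation is 3009 kb long and encloses 31 other protein-coding genes, so this value does not describe the receptor gene alone. Ezh2 KO H3K27me2 covered 64.3% to 91.6% of the other 9 bodies. Most of these genes had low counts in WT. Shank2 had normalized counts of 0 and 0.963 in WT against 1.05 and 0 in Ezh2 KO, and Gabbr2 2.67 and 0 in WT against 0 and 0 in Ezh2 KO. Sorcs2 had 29.3 and 53.0 in WT against 14.6 and 13.5 in Ezh2 KO, and Cdh4 41.4 and 38.5 in WT against 42.9 and 74.5 in Ezh2 KO. The Sorcs2 groups did not overlap, but its log2 fold change of -1.42 (SE 0.47) did not pass the limma test (adjusted p = 0.369).

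The members with the highest WT counts were mostly genes with a wide region over a small part of their body. Esrrb had normalized counts of 2082 and 2307 in WT against 2497 and 2280 in Ezh2 KO. Cmah had 2358 and 1909 in WT against 2154 and 2018 in Ezh2 KO, with 4.004% of its body in a wide region, and Nisch, Wdr77 and Brd3 had 7.09%, 20.8% and 9.34%. In Nisch, Wdr77 and Brd3 wide WT H3K27me1 covered 70.8%, 40.9% and 64.5% of the body. The groups overlapped in Esrrb, Cmah, Nisch and Brd3, and Wdr77 did not pass the limma test (adjusted p = 0.745).

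Whether members changed in RNA was tested with limma over all 13872 genes whose normalized counts averaged 5 or more across the 8 libraries. Of the 3199 genes with a wide region 1460 passed this filter. With only the 4 libraries of WT and Ezh2 KO, 1244 passed it, so some members entered through the other 2 lines. Limma called 4 of the 1460 higher in Ezh2 KO (0.274%) and 7 lower (0.479%). Over all genes tested 0.0937% were called higher and 0.31% lower. Among tested genes without a wide region on the listed chromosomes the shares were 0.0553% and 0.258%. A gene was called when its adjusted p was below 0.1 and it changed by 1 or more on the log2 scale. These counts depend on single libraries. Limma called 0 members in either direction without Ezh2 KO replicate 2, and 2 higher and 2 lower without Ezh2 KO replicate 1. It called 1 higher and 0 lower without WT replicate 1, and 12 higher and 14 lower without WT replicate 2. On recovered reads edgeR called 2 higher and 2 lower, and DESeq2 8 and 22. At an unadjusted p under 0.05, 70 of the 1460 members were higher and 132 lower. Over all 13872 genes tested, 573 were higher and 652 lower at that p. Among the 10847 without a wide region on the listed chromosomes it was 444 and 449. With the replicate block limma called 4 members higher and 3 lower.

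The 4 genes called higher had a wide region over a small part of the body. Hmcn1, a hemicentin gene of the extracellular matrix, had normalized counts of 14.7 and 10.6 in WT against 109 and 186 in Ezh2 KO (log2 fold change 3.41, SE 0.39, adjusted p = 0.0109), with 1.34% of its body in a wide region. Its counts in Ezh1/2 dKO were 209 and 159 and in Ezh2 Y726D 15.2 and 11.2. Brdt, a bromodomain gene of the testis, had 0 and 1 reads in WT against 17 and 16 in Ezh2 KO, a ratio of 29.7 with an exact counting interval of 4.96 to 1206 (adjusted p = 0.0403), and its start site lay in a wide region. Meis2, a homeobox gene, had 204 and 210 in both WT libraries and 551 and 518 in those of Ezh2 KO (log2 fold change 1.36, SE 0.19, adjusted p = 0.0262), and Spats2l rose by 1.42 (SE 0.25, adjusted p = 0.083). The call was lost in 1 of 14 alternatives for Hmcn1, 3 of 14 for Meis2, 6 of 14 for Brdt and 8 of 14 for Spats2l. Among these were edgeR for Brdt and Spats2l, DESeq2 for Brdt and the replicate block for Spats2l. In each of the 4 both Ezh2 KO libraries were above both WT libraries, which largely follows from the call and is no separate support.

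The 7 genes called lower included more covered ones. Cacna1s, the calcium channel of skeletal muscle, had 57.1% of its body in 5 wide regions and normalized counts of 42.7 and 17.3 in WT, 1.05 and 1.94 in Ezh2 KO, 95.6 and 156 in Ezh1/2 dKO and 12.5 and 22.4 in Ezh2 Y726D. Aldh1a2, which encodes an enzyme of retinoic acid synthesis, had 30.9% of its body in 3 wide regions and counts of 127 and 119.4 in WT against 25.1 and 24.2 in Ezh2 KO (log2 fold change -2.27, SE 0.41, adjusted p = 0.086). Maml2, a coactivator of Notch signalling, had 153 and 131 in WT against 4.18 and 2.90 in Ezh2 KO (log2 fold change -4.99, SE 0.60, adjusted p = 0.0128), with 6.96% of its body in a wide region. Cobll1 had 11 and 13 reads in WT against 0 and 0 in Ezh2 KO, at least 4.50-fold lower with a floor of 3 reads per library. Smoc1, a matricellular gene, had 378 and 348 in WT against 123 and 119.02 in Ezh2 KO (adjusted p = 0.0124). Pnma2 and Trib2 fell by 1.51 and 2.78 on the log2 scale (adjusted p = 0.086 for both). The call was lost in 10 of 13 alternatives for Trib2, 9 of 14 for Pnma2, 8 of 14 for Aldh1a2 and for Cacna1s, 6 of 13 for Cobll1, 3 of 14 for Smoc1 and 2 of 14 for Maml2. Trib2, Pnma2, Aldh1a2 and Cacna1s lost it both with edgeR and with the replicate block. Cobll1 lost it with edgeR, and Trib2 also with DESeq2. In all 7 both Ezh2 KO libraries were below both WT libraries, which largely follows from the call and is no separate support. Folds are on the scale of log2(normalized count + 1), which understates changes of low genes.

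**Figure D5:**
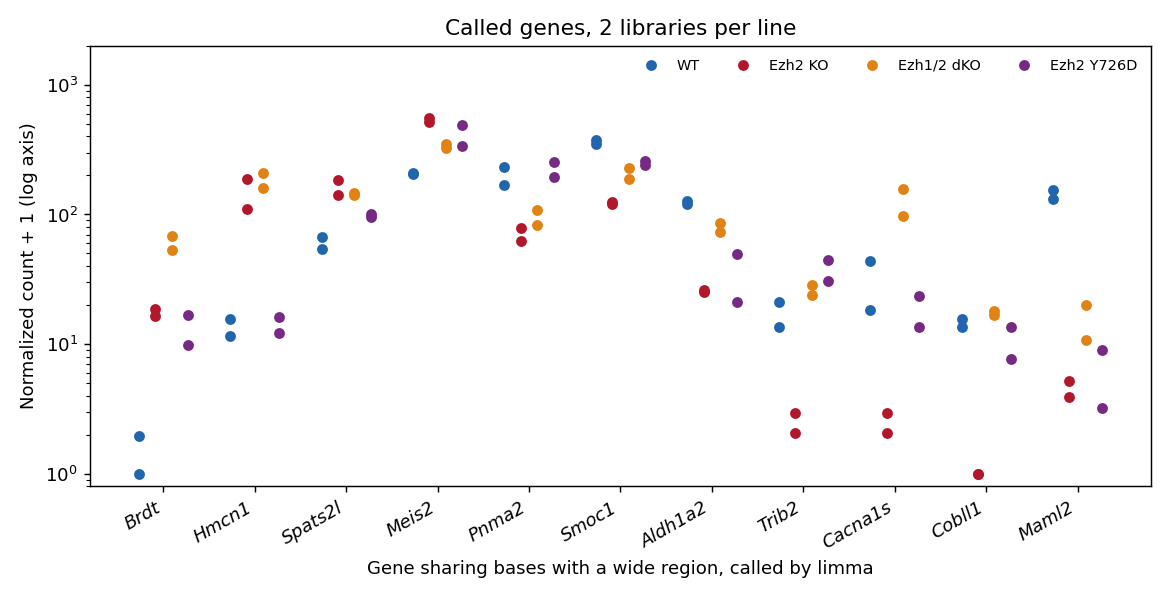
Normalized count + 1 (log axis) of the 11 members called by limma, with 1 point per library and 2 libraries for each of the 4 lines. Both Ezh2 KO points lie above both WT points in 4 genes and below them in 7, and Cobll1 was at 0 in both Ezh2 KO libraries.

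Median changes of members with and without SUZ12 at the start are given as a description, and their difference was not tested. In the 656 tested members with the start at most 5 kb from WT SUZ12 the median log2 fold change was -0.30, and it was -0.41 to -0.13 in the 4 pairings of 1 Ezh2 KO with 1 WT library. In the 804 other members it was 0.02 (-0.10 to 0.12), and over all 12307 matched genes -0.01 (-0.03 to 0.01). In 997 tested genes with SUZ12 at the start and no wide region it was -0.04 (-0.11 to 0.02). At an unadjusted p under 0.05, 96 of the 656 were lower and 22 higher, 85 and 75 of the 997, and 581 and 514 of all 12307 matched genes. The medians of the WT normalized count were 15.9 in the 656 genes, 36.6 in the 997 and 174 over all matched genes, and the part of this level in the difference was not tested. In the 351 tested genes with at least 50% of the body in wide regions the median was -0.29, with 2 called lower and 0 higher by limma, 35 lower and 10 higher at an unadjusted p under 0.05, 0 called by edgeR, and 4 lower and 1 higher by DESeq2.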

How the data were processed

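Positions and -log10 p of ChIP-seq and ATAC-seq lists of mouse ESCs were used as deposited, together with normalized counts of RNA-seq of the 4 lines. Alignment to mm9 (Bowtie), duplicate removal (Picard) and region calling (MACS2) were done by the authors. The deposited narrow lists (SUZ12, H3K27me3, H3K27ac) give a fold and a -log10 p per peak and were kept at p of 1e-10 or less, and the broad lists (H3K27me1, H3K27me2, ATAC-seq) were used whole. The smallest -log10 p in each H3K27me1 list was 1.01, and the threshold of each single list is not given in the sources used here. The spike-in scaling of the study does not enter the lists. Ratios in the deposited lists are a fold over background. The deposited RNA-seq signal is the authors' HTSeq read counts divided by a DESeq2 size factor. In every library 100% of the values were whole multiples of 1 read within 0.05, and libraries held 3604123 to 5181553 reads.

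Members and gene lists were chosen with earlier results of these data known. Overlaps and distances were computed with Python 3.11.15, numpy 2.4.6, pandas 2.3.3, scipy 1.17.1 and pysam 0.24.0, the gene positions came from the GENCODE annotation of mm9, and a member gene shares at least 1 bp with a wide region. Of 18055 genes with RNA-seq values, 15597 were matched to a protein-coding gene by symbol and 713 by a synonym, which left 1745 unmatched. The 136 symbols at more than one locus were left out of the match. Lists of other marks and lines of the series were not used here. Ezh2 KO was compared with WT by limma 3.58.1 (R 4.3.3, trend) on log2(normalized count + 1) over all 8 libraries, with Benjamini-Hochberg adjustment. On the recovered reads edgeR 4.0.16 called 7 genes higher and 23 lower and DESeq2 1.42.0 called 45 and 99, where limma called 13 and 43. The labels do not say whether the 2 libraries of a line came from separate cultures, so p-values measure the spread between libraries, which may be technical. Intervals are Wilson 95% intervals, and for medians order-statistic intervals. The interval functions and the limma fit were tested on simulated data. Figures were drawn with matplotlib 3.10.9.

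Named were the 10 widest regions, the 10 with the largest -log10 p, the 10 genes with the most bases in wide regions, up to 5 called genes in each direction by size of change with both Ezh2 KO libraries beyond both WT libraries, the 5 members with the highest WT count, and the fixed gene lists. Smoc1 and Pnma2 fall outside this rule and were named after their values were seen.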

Additional observations from a re-analysis of the deposited data

How the results depend on the processing

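The number of wide regions was 39040 at a width of at least 3000 bp, 3029 at 10000 bp, and 22079 with regions closer than 1 kb joined. With 10000 bp, WT H3K27me1 covered 2.90% of the bases, WT H3K27me3 peaks touched 22.6% of the regions, the median distance to SUZ12 was 80.4 kb and 54.5% overlapped a protein-coding gene. With only sub-blocks of the WT lists, H3K27me2 covered 0.00184% and H3K27me1 0.0203% of the wide-region bases, and at a -log10 p of at least 2 they covered 0.574% and 0.384%, so both shares rest on weakly enriched regions. H3K27me3 peaks over at least 10% of the region were found in 6.74% of the regions and peaks at a p of at most 1e-20 in 2.86%. SUZ12 peaks at that p gave a median distance of 175 kb. A gene over at least 50% of the region was found for 43.3%, and any annotated gene for 51.3%.

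Leaving out 1 library at a time gave 0 to 12 members called higher and 0 to 14 lower. Members called higher and lower numbered 2 and 2 with edgeR, 8 and 22 with DESeq2, 0 and 2 where at least 50% of the body was in wide regions, and 1 and 0 where the start site was. Members called lower were 4 at a pseudocount of 5, 4 with only the 4 libraries compared, 4 after quantile normalization and 3 without a filter. The cause was not tested. With the replicate block 3 were called lower and 4 higher. Deviations of libraries with the same number correlated between -0.41 and 0.29 over 6 pairs of lines, so the number was not taken as a pairing. The 11 called genes lost their call in 64 of 152 gene-by-alternative values, with 0 reversed, and the 18 other named genes tested were called in none of theirs.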
